A study of Mus musculus with 36 samples.

Results

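The genes described here are 31 enzymes and regulators of cholesterol and fatty acid synthesis, measured in macrophages washed from the lungs of mice. They were chosen by name, from what each protein does, and were found as the array features annotated with exactly 1 symbol equal to that name. All 31 were present among the 18820 genes so annotated, and the 28940 analysed features formed the background. For Idi1, Scap and Acaca, which had 2 features each, the feature of higher mean over the 36 arrays was used. The list has a sterol arm of 17 enzymes from Hmgcs1 to Dhcr7, a group of 5 sensing and transport genes (Srebf1, Srebf2, Scap, Insig1 and Stard4), and a fatty acid arm of 9 enzymes from Acly to Fads2.

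Lung lavage was collected from Scnn1b-Tg mice (Tg) and wild-type littermates (WT) of strain C57Bl/6N Tac. In the Tg mice a transgene driven in airway club cells overexpresses Scnn1b, a subunit of the airway's epithelial sodium channel, so that the airway surface is dehydrated, while the WT mice carry no transgene. Cells were passed over Ly-6G beads to remove granulocytes, and the unbound cells were taken as macrophages. Ages are written as postnatal day (PND). Mice kept free of specific pathogens (SPF) gave 3 arrays of each genotype on PND 0 and 4 of each on PND 3, PND 10 and PND 42. A separate colony without microbes, called germ-free (GF), gave 3 of each genotype on PND 42. An array of PND 0, 3 or 10 held cells pooled from 3 pups, and an array of PND 42 the cells of a single mouse. Values are log2 signals, and the median over all features of an array lay between 3.72 and 4.06. A group mean at or below 4.06 is called near background.

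Cholesterol is built from acetyl-CoA through mevalonate, isoprenoid units, squalene and lanosterol. Most of the enzymes are controlled together by the transcription factor SREBP-2 (Srebf2), which the escort protein SCAP carries out of the endoplasmic reticulum when membrane sterol is low, and which INSIG-1 holds back when sterol is high. SREBP-1 (Srebf1) acts more on fatty acid synthesis, where acetyl-CoA carboxylase and fatty acid synthase make palmitate and the elongases and desaturases lengthen it and add double bonds. Alveolar macrophages live in surfactant lipid, which they take up and break down, and alveolar type 2 cells, which make that surfactant, are themselves strong synthesizers of fatty acid.

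The promoter of Hmgcs1, which encodes the first committed synthase of the mevalonate pathway, is shown because, among the members with a promoter at hand, it alone held the 9-letter sterol regulatory element TCACNCCAC on either strand. It is the 250 bases before the annotated start, chr13:119690101-119690350 of GRCm38.p6, plus strand, from RefSeq. The capitals mark the TCACCCCAC match, and 3 copies of CCAAT in its reverse form, the box bound by NF-Y, a partner of SREBP.
Hmgcs1: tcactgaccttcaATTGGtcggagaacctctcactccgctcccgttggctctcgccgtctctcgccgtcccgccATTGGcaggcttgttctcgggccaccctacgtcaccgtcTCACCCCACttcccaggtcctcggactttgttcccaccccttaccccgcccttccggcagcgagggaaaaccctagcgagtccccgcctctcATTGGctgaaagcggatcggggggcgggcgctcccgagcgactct

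RefSeq windows of 300 bases, from 250 before to 50 after the start, were at hand for 24 of the 31 members, of which 4 had more than 1 start. None was at hand for Fdps, Fdft1, Sqle, Stard4, Scd1, Scd2 and Fads1. TCACNCCAC was found in 1 of 14 sterol arm genes (7.14%), in 0 of 4 sensing genes and in 0 of 6 fatty acid genes, against 1.44% of the 27025 genes in the table. The shorter CACNCCAC, which lies inside it, was found in 7.14% of the sterol arm, in Insig1 among the 4 sensing genes and in 7.12% of all genes. CCAAT was found in each of the 14 sterol arm genes (100%), in 3 of 4 sensing genes (75%) and in 3 of 6 fatty acid genes (50%), against 41.1% of all genes. The E-box CACGTG was found in 3 of 14 sterol arm genes (Hsd17b7, Sc5d and Dhcr7), in Scap and Insig1, in 0 of 6 fatty acid genes and in 8.09% of all genes. Both strands were searched, and a gene with several starts counts once.

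Before the members are compared, some libraries need description. The level of a marker list is the mean log2 value of its genes on an array. For the alveolar macrophage list of 14 measured markers it was between 7.84 and 8.72 in the 6 arrays of PND 0. In all later arrays it was between 8.88 and 10.6. Of those 14 genes, Pparg and Abcg1 also stand in the lipid lists used below. The defining markers of other cells were high at PND 0: Sftpc, the surfactant protein of alveolar type 2 cells, had a mean of 11.3 in WT and 11.0 in Tg arrays of that age, against 5.50 to 8.08 in the later groups. The alveolar type 2 list of 12 genes lay between 7.60 and 8.72 at PND 0 and between 4.52 and 5.33 afterwards. The Tg arrays of PND 0 also read 8.62 to 9.90 for the muscle actin Acta1, against 3.62 to 4.95 in WT. Scnn1b itself was 10.23, 10.33 and 5.47 in the arrays labelled Tg at PND 0 and 4.06, 5.27 and 6.68 in the WT arrays, so that the library labelled Tg PND 0 replicate 3 lay inside the WT range. At PND 3 all Tg arrays were above WT (5.37 to 6.03 against 3.09 to 3.55). Later the readings were low in both genotypes, and Tg PND 10 replicate 1 (3.26, WT 3.10 to 3.35) and Tg PND 42 SPF replicates 2 and 4 (3.59 and 3.41, WT 3.19 to 3.67) also lay inside the WT range. The methods describe the lavaged mice as male, yet Xist, which is expressed in female cells, was above 7.48 in 11 of the 36 arrays and below 3.60 in the rest. The 11 were replicate 3 of both genotypes at PND 0, 2 of 4 WT and 3 of 4 Tg arrays at PND 3, and 2 of 3 arrays of each genotype in GF housing. In any bulk sample, fewer cells of a type and less RNA per cell cannot be told apart.

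The first question was how the transgene changed these genes at each age. The words rose and fell are kept for members with an adjusted p under 0.05 in limma's moderated test over all 28940 features. Of the 31 members, the number that passed was 4 at PND 0, 3 at PND 3 and 0 at PND 10, and among adults of PND 42 it was 5 in SPF and 4 in GF mice. The largest changes were those of Scd1, which makes oleate and palmitoleate and rose 6.16-fold in SPF and 15.7-fold in GF adult Tg macrophages. Elovl6, which elongates palmitate to stearate, fell in both housings. The sterol arm as a whole did not go one way, with Tg above WT for 4 of 17 enzymes at PND 0, at PND 3 and at PND 10, for 13 of 17 in adult SPF mice and for 3 of 17 in adult GF mice. No all-feature share by sign stands beside these counts.

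**Figure D1:**
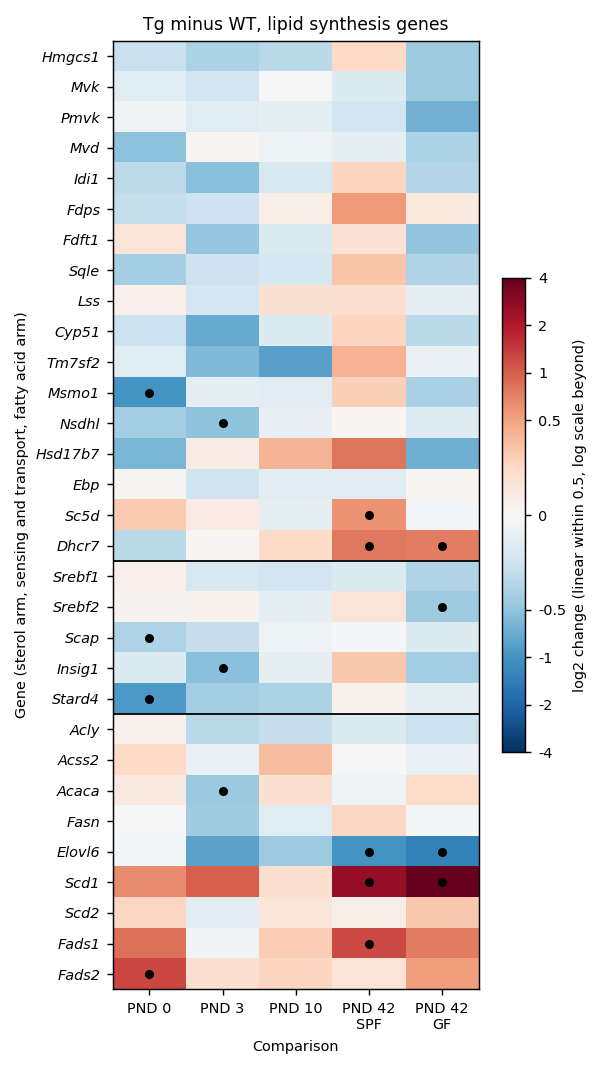
Log2 change of each of the 31 genes (rows) in Tg against WT macrophages at each age and housing (columns), with red for higher in Tg, blue for lower, black dots where the adjusted p was under 0.05, and lines between the sterol arm, the sensing and transport genes and the fatty acid arm. Scd1 holds the darkest cells, at 2.62 and 3.97 in adult mice, and the sterol arm is mostly red in SPF adults and mostly blue in GF adults.

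In adult SPF mice 4 members rose and 1 fell, where 2.72% of all features rose and 1.77% fell. Scd1 was 5.43, 5.53, 5.81 and 5.95 in the 4 WT mice and 9.02, 7.80, 8.21 and 8.18 in the 4 Tg mice. Every Tg mouse lay above every WT mouse by more than the spread within either group. The log2 change was 2.62 (SE 0.49, adjusted p = 0.000681). Fads1, the delta-5 desaturase that completes arachidonic acid, was 5.16, 5.52, 5.03 and 4.89 in WT and 5.89, 6.74, 6.13 and 6.77 in Tg mice, again without overlap, a log2 change of 1.23 (SE 0.24, adjusted p = 0.00101). Both calls held with each of the 8 arrays left out. Elovl6 was 4.59, 4.94, 4.92 and 5.18 in WT and 3.77, 4.08, 3.92 and 3.89 in Tg mice, with no overlap and with the Tg mean of 3.91 near background. Its log2 change of -0.99 (SE 0.26, adjusted p = 0.0234) lost its call in 6 of the 8 omissions, between -1.10 and -0.90.

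The last steps of sterol synthesis also moved in these mice. Dhcr7, which makes cholesterol from 7-dehydrocholesterol, was 7.24, 7.24, 7.37 and 7.40 in WT and 8.08, 7.88, 8.05 and 8.38 in Tg mice. All 4 Tg mice lay above all 4 WT mice, and the log2 change was 0.78 (SE 0.19, adjusted p = 0.00826), with the call lost without Tg replicate 4 (0.69). Sc5d, which makes the 7-dehydrocholesterol that Dhcr7 uses, was 7.26, 7.35, 7.25 and 7.34 in WT and 7.79, 7.78, 8.01 and 7.99 in Tg mice, also without overlap. Its log2 change was 0.59 (SE 0.17, adjusted p = 0.0323), and its call was lost in 6 of 8 omissions, between 0.56 and 0.63. The remaining sterol enzymes ranged from -0.24 for Pmvk to 0.81 for Hsd17b7 (adjusted p = 0.0881), and none passed. With the requirement of a 2-fold change as well, the limit used in the study, 2 members passed (Scd1 and Fads1), where 1.62% of all features did.

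In adult GF mice, 2 members rose and 2 fell, where 3.14% of all features rose and 1.77% fell. Scd1 was 4.69, 5.46 and 4.91 in WT and 8.49, 9.28 and 9.21 in Tg mice, so that the lowest Tg mouse was far above the highest WT mouse. The log2 change was 3.97 (SE 0.56, adjusted p = 1.71e-05), and it stayed between 3.81 and 4.23 with each array left out. Elovl6 was 4.92, 5.70 and 4.54 in WT and 3.66, 4.45 and 3.14 in Tg mice, where the highest Tg mouse lay just below the lowest WT mouse. Its log2 change was -1.30 (SE 0.31, adjusted p = 0.00803), and the call was lost without WT replicate 2 (-0.98) and without Tg replicate 3 (-1.0). The Tg mean was again near background. Dhcr7 was 7.31, 7.46 and 7.57 in WT and 8.09, 8.16 and 8.31 in Tg mice, with no overlap (log2 change 0.74, SE 0.21, adjusted p = 0.0375). Srebf2, the sterol regulator itself, was 8.40, 8.45 and 8.49 in WT and 8.09, 8.02 and 7.90 in Tg mice, also with no overlap (log2 change -0.44, SE 0.13, adjusted p = 0.0443). The calls of Dhcr7 and Srebf2 were each lost in all 6 omissions, which left values of 0.67 to 0.80 and of -0.48 to -0.39. Fads1 did not pass here (log2 change 0.75, adjusted p = 0.133). Scd1 and Elovl6 changed by at least 2-fold, where 2.25% of all features met that limit.

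**Figure D2:**
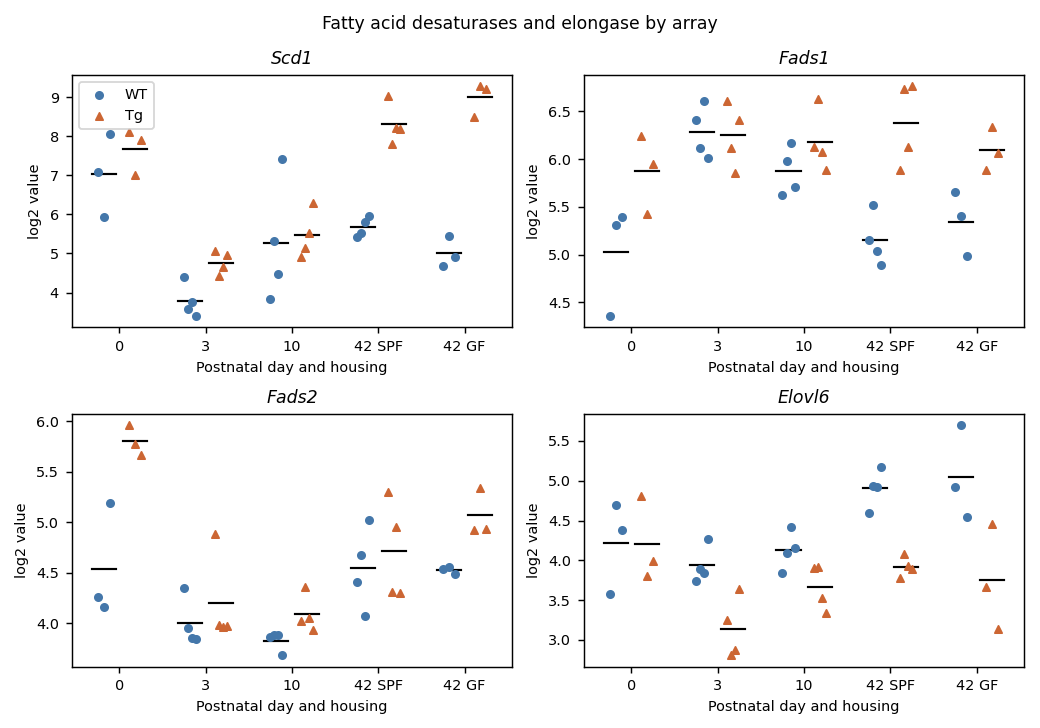
Log2 signal of Scd1, Fads1, Fads2 and Elovl6 on each of the 36 arrays by age and housing (WT as circles, Tg as triangles, group means as black lines). Scd1 falls after birth in both genotypes and lies between 7.80 and 9.28 in the adult Tg mice and between 4.69 and 5.95 in the adult WT mice, while Elovl6 lies lower in the adult Tg mice. In the WT pools of PND 10 Scd1 is spread from 3.85 to 7.42.

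The adult Tg arrays differed from WT in lists of cell type markers as well. The club and goblet cell list had 4 of 9 genes higher in SPF and 5 of 9 in GF Tg mice. Its mean levels were 5.07 to 5.52 against 4.32 to 4.64 in SPF and 5.33 to 5.82 against 4.51 to 4.77 in GF mice. The dendritic cell list had 4 of 6 and 3 of 6 genes higher, with levels of 5.69 to 6.11 against 4.85 to 5.14 in SPF mice and of 5.93 to 6.41 against 4.91 to 5.10 in GF mice. The neutrophil list of 14 genes had 2 higher and 1 lower in SPF and 3 higher and 1 lower in GF mice, at levels of 4.31 to 4.40 in WT and 4.61 to 4.99 in Tg SPF mice, and of 4.41 to 4.46 and 5.01 to 5.69 in GF mice. Of 5 T cell markers 2 rose in SPF and 3 in GF mice, at levels of 4.82 to 5.6 against 4.66 to 5.05 and of 5.12 to 5.59 against 4.59 to 4.66. Of 8 monocyte markers 1 rose and 1 fell in SPF and 2 rose and 1 fell in GF mice. Their levels were 5.44 to 5.68 against 5.21 to 5.46 in SPF and 5.77 to 6.31 against 5.21 to 5.26 in GF mice. Of the 8, 4 were near background in Tg mice of each housing. The alveolar macrophage list was lower in Tg mice without overlap, at 10.19 to 10.46 against 10.51 to 10.63 in SPF and 9.85 to 10.29 against 10.43 to 10.52 in GF mice. Of its 14 genes 2 fell in SPF mice (Cidec and Siglecf) and 3 in GF mice (Fabp1, Cidec and Krt19). All 7 measured adipocyte markers were near background in Tg mice of both housings. The part of any of these cells in the changes of Scd1, Fads1, Elovl6, Dhcr7, Sc5d and Srebf2 was not tested.

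At birth, 1 member rose and 3 fell, where 2.74% of all features rose and 1.59% fell. Fads2, the delta-6 desaturase that opens the synthesis of long polyunsaturated fatty acids, was 4.26, 4.16 and 5.19 in WT and 5.96, 5.77 and 5.67 in Tg pools. All Tg pools lay above all WT pools, and the log2 change was 1.27 (SE 0.26, adjusted p = 0.00414), between 1.08 and 1.59 with each array left out. Msmo1, the methyl sterol oxidase that removes the 4-methyl groups of lanosterol products, was 8.01, 7.01 and 6.81 in WT and 6.42, 6.57 and 5.85 in Tg pools, without overlap. Its log2 change was -1.0 (SE 0.22, adjusted p = 0.00673), and the call was lost without WT replicate 1 (-0.63). Stard4, which moves cholesterol between membranes, was 5.82, 5.87 and 5.39 in WT and 4.51, 5.08 and 4.72 in Tg pools, also without overlap. The log2 change was -0.92 (SE 0.21, adjusted p = 0.00746), lost without Tg replicate 1 (-0.79). Scap was 7.02, 6.85 and 7.02 in WT and 6.65, 6.86 and 6.22 in Tg pools, which overlapped (log2 change -0.39, SE 0.11, adjusted p = 0.0469), and its call was lost in 4 of 6 omissions, between -0.53 and -0.21.

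The calls at birth depended on the libraries and the fit. Without the library labelled Tg PND 0 replicate 3, Fads2, Msmo1 and Stard4 still passed and Scap did not. A fit to the 6 arrays of this age alone gave 0 calls. One with a weight for each array kept only Fads2, and one with a weight for each age kept only Msmo1. The same Tg pools held the muscle signal given above. All 10 skeletal muscle markers rose, with mean levels of 6.13 to 7.44 against 3.54 to 3.90 in WT. So did 7 of 8 fibroblast markers (4.50 to 7.70 against 4.43 to 5.25). Of 6 erythroid markers 4 rose (3.74 to 8.06 against 3.81 to 4.07). Of 7 adipocyte markers 2 rose (3.11 to 5.15 against 3.11 to 3.25). Of the 12 alveolar type 2 markers, 0 rose and 1 fell. Of the 14 alveolar macrophage markers 4 fell, namely Siglecf (-0.79), Pparg (-0.72), Mrc1 (-0.42) and Atp6v0d2 (-0.33). The mean levels of that list were 7.84 to 8.38 in Tg against 8.27 to 8.72 in WT. The part of these cells and tissues in the changes of Fads2, Msmo1, Stard4 and Scap was not tested. Fads2 alone also changed by at least 2-fold, where 1.48% of all features did.

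At PND 3, 3 members fell and 0 rose, where 1.87% of all features fell and 2.17% rose. Nsdhl, which works with Msmo1 in removing the 4-methyl groups, was 7.21, 7.02, 6.97 and 6.94 in WT and 6.59, 6.48, 6.25 and 6.80 in Tg pools, with every Tg pool below every WT pool (log2 change -0.51, SE 0.13, adjusted p = 0.0166). Insig1, itself a target of SREBP, was 9.47, 9.25, 9.17 and 9.17 in WT and 9.18, 8.71, 8.42 and 8.59 in Tg pools, where the highest Tg pool reached the lowest WT pools (log2 change -0.54, SE 0.15, adjusted p = 0.0287). Acaca, the carboxylase that makes malonyl-CoA, was 6.6, 6.43, 6.76 and 6.43 in WT and 6.07, 6.54, 6.02 and 5.70 in Tg pools, which overlapped (log2 change -0.47, SE 0.13, adjusted p = 0.0414). The calls were lost in 3, 5 and 7 of 8 omissions, with values from -0.60 to -0.41 for Nsdhl, from -0.69 to -0.44 for Insig1 and from -0.62 to -0.34 for Acaca. A fit to the 8 arrays of this age alone lost all 3 calls and called Fasn and Scd1 instead. None changed by 2-fold, where 1.4% of all features did. At an unadjusted p under 0.05, 13 of the 31 members differed. The share of all features at that unadjusted limit is not given, here or below. The percentages of all features called use the adjusted p, so the unadjusted counts have no background beside them.

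The Tg pools of PND 3 also held more neutrophil and monocyte signal than the WT pools, after the passage over Ly-6G beads. By the paper's cell counts, macrophages were the large majority of the PND 3 fractions that could be counted. Neutrophils were seen there in some Tg fractions and in no WT fraction. Of 14 neutrophil markers, 7 rose, with mean levels of 7.12 to 8.49 against 5.0 to 6.84 in WT. Of 8 monocyte markers 4 rose and 1 fell, at 6.69 to 7.59 against 5.61 to 6.77. Of the 14 alveolar macrophage markers 8 fell, at 8.88 to 9.28 against 9.54 to 9.85. The part of these cells in the lower Nsdhl, Insig1 and Acaca was not tested. At PND 10, limma called 0 members (3 at an unadjusted p under 0.05), where 1.57% of all features were called and 0.636% with the 2-fold limit. Tm7sf2, a sterol reductase, came nearest, with 5.02, 5.0, 5.44 and 5.56 in WT and 3.80, 4.71, 4.96 and 4.27 in Tg pools (log2 change -0.82, adjusted p = 0.0651).

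Apart from the lower Srebf2 of GF Tg mice, the transcription factors and Insig1 passed no test between genotypes in adults. Srebf1 was 6.93, 6.83, 6.86 and 7.03 in WT and 6.79, 6.65, 6.76 and 6.72 in Tg mice of SPF housing (log2 change -0.18, adjusted p = 0.687) and 6.75, 6.81 and 6.95 against 6.5, 6.36 and 6.54 in GF mice (-0.37, adjusted p = 0.236). The Tg mice lay below the WT mice in both housings without a call. Srebf2 in SPF mice was 7.95, 8.11, 8.21 and 8.19 in WT and 8.27, 8.34, 8.18 and 8.30 in Tg mice, which overlapped (0.16, adjusted p = 0.656). Insig1 was 9.22, 9.49, 9.40 and 9.48 in WT and 9.65, 10.00, 9.42 and 9.87 in Tg mice of SPF housing (0.34, adjusted p = 0.257), and 9.72, 9.63 and 9.48 against 9.28, 9.17 and 9.08 in GF mice (-0.43, adjusted p = 0.179). Its Tg values tended above WT in the one housing and below in the other, with no call in either. These are mRNA levels, and neither the cleavage nor the location of SREBP was measured.

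The second question was how the genes moved with age. Between PND 0 and PND 3, 5 sterol enzymes rose and 1 fell in WT, and 4 rose and 1 fell in Tg macrophages. Of the 9 fatty acid genes 2 rose and 3 fell in WT, and 0 rose and 7 fell in Tg. The median log2 change of the sterol arm was 0.37 in WT and 0.22 in Tg macrophages, that of the fatty acid arm was -0.28 and -1.04, and that of all features was 0.00 and 0.04. Centring each array on its median moved all changes by 0.24 in WT and 0.25 in Tg, and turned the sign of 3 members in WT and of 2 in Tg. The difference between the arms was not tested.

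**Figure D3:**
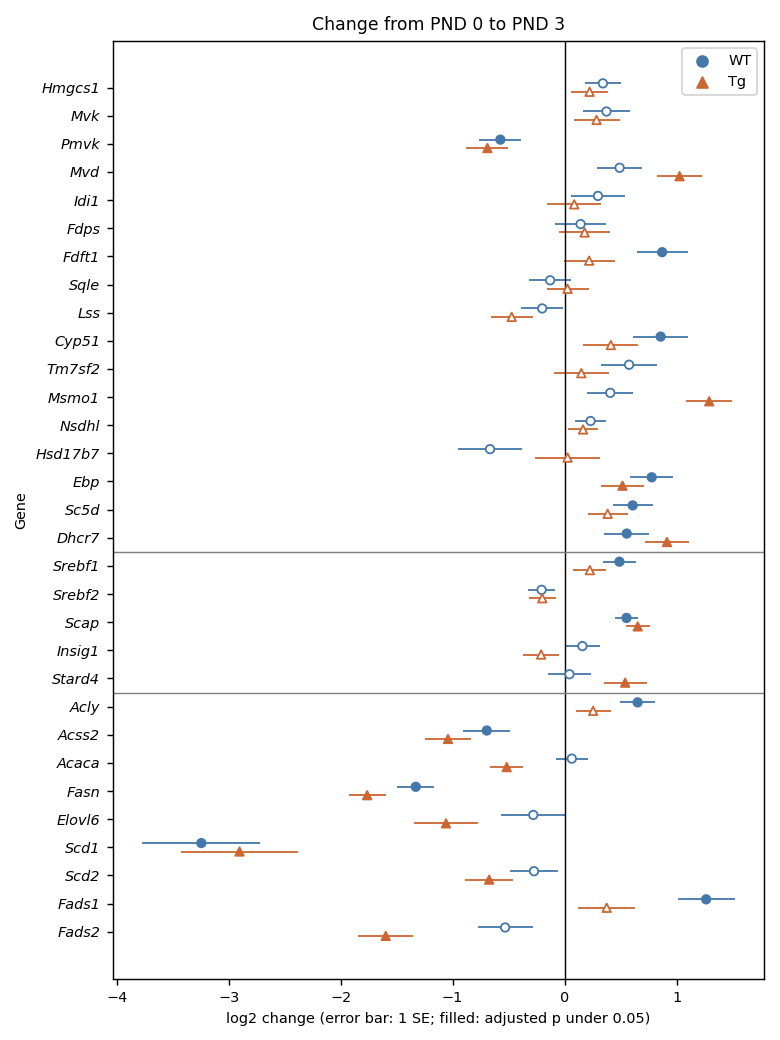
Log2 change of each gene from PND 0 to PND 3 with bars of 1 SE, circles for WT and triangles for Tg, filled where the adjusted p was under 0.05. Scd1 and Fasn lie far below 0 in both genotypes, at -3.24 and -1.33 in WT and -2.90 and -1.76 in Tg, while most of the sterol arm lies above 0.

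In WT macrophages 9 members rose and 4 fell, against 14% and 12% of all features. Scd1 was 7.09, 5.93 and 8.06 at PND 0 and 4.40, 3.57, 3.76 and 3.41 at PND 3, with a later mean near background (log2 change -3.24, SE 0.53, adjusted p = 1.45e-05). Fasn, the synthase that makes palmitate, was 7.0, 7.06 and 7.46 and then 5.86, 5.85, 5.98 and 5.69 (-1.33, SE 0.16, adjusted p = 1.77e-07). Both fell without overlap, and Fads1 rose without overlap, from 4.36, 5.31 and 5.40 to 6.42, 6.12, 6.61 and 6.01 (1.26, SE 0.26, adjusted p = 0.000277). In the sterol arm Fdft1, the squalene synthase, rose by 0.87 (adjusted p = 0.004), Cyp51, the lanosterol demethylase, by 0.86 (adjusted p = 0.0082), and Ebp, a sterol isomerase, by 0.78 (adjusted p = 0.0024). The remaining calls were Acly, Sc5d, Dhcr7, Scap and Srebf1, which rose by 0.49 to 0.65, and Acss2 and Pmvk, which fell by 0.70 and 0.57. WT PND 0 replicate 3 decided many of these: without it 5 members passed, and Fdft1 (0.59), Cyp51 (0.49), Sc5d (0.38), Srebf1 (0.25), Acly (0.38) and Dhcr7 (0.33) were among those lost, while Scd1, Fasn, Fads1, Ebp and Scap passed with each array left out.

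In Tg macrophages 6 members rose and 8 fell, against 16% and 14% of all features. Of the 9 fatty acid genes 7 fell. Fasn went from 7.35, 7.30 and 6.85 to 5.56, 5.35, 5.31 and 5.38 (log2 change -1.76, SE 0.16, adjusted p = 5.70e-10), and Scd1 from 8.10, 7.01 and 7.90 to 5.05, 4.41, 4.64 and 4.96 (-2.90, SE 0.53, adjusted p = 5.47e-05). Fads2 went from 5.96, 5.77 and 5.67 to 4.88, 3.98, 3.97 and 3.98 (-1.60, SE 0.25, adjusted p = 5.01e-06), all 3 genes without overlap. Acss2 (-1.04), Elovl6 (-1.06), Scd2 (-0.67) and Acaca (-0.52) fell as well, and the call was lost without Tg PND 0 replicate 1 for Elovl6 (-0.76) and Scd2 (-0.43) and without replicate 2 for Scd2 as well (-0.64). Msmo1 rose from 6.42, 6.57 and 5.85 to 7.83, 7.82, 7.50 and 7.14 (1.29, SE 0.20, adjusted p = 8.18e-06), and Mvd, a mevalonate pathway decarboxylase, from 5.62, 6.11 and 6.02 to 6.62, 7.35, 7.06 and 6.76 (1.03, SE 0.20, adjusted p = 0.000133), both without overlap. Dhcr7 (0.91), Scap (0.65), Stard4 (0.54) and Ebp (0.52) also rose, and Pmvk fell by 0.69, with the call of Pmvk lost without Tg PND 0 replicate 2 (-0.52) and those of Ebp and Stard4 in 5 and 4 of 7 omissions (0.31 to 0.73 and 0.41 to 0.69). Omitting one pool left 11 to 14 calls, and 14 were left without the library labelled Tg PND 0 replicate 3.

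In the same interval 9 of 12 alveolar type 2 markers fell in each genotype, with median log2 changes of -4.08 in WT and -3.66 in Tg, as did 8 of 9 club and goblet cell markers and all 8 ciliated cell markers. All 12 mitosis markers rose in both. The part of these cells, which include strong makers of fatty acid, in the lower Scd1, Fasn, Fads2 and Acss2 was not tested. Whether the change of a member from PND 0 to PND 3 differed between the genotypes was tested as an interaction, in which limma called 0 members (4 at an unadjusted p under 0.05), where 3.27% of all features were called.

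From PND 3 to PND 10 limma called 0 members in WT (1 at an unadjusted p under 0.05) and 0 in Tg macrophages (3 at an unadjusted p under 0.05), where 0.131% and 1.45% of all features were called. From PND 10 to PND 42 in SPF housing the sterol arm was higher at the later age for 14 of 17 enzymes in WT (median log2 change 0.36) and for 17 of 17 in Tg macrophages (median 0.75), beside all-feature medians of 0.01 and -0.02. Passing members numbered 1 in WT and 15 in Tg, all of them rising, where 1.32% of all features rose and 1.19% fell in WT and 2.58% rose and 2.03% fell in Tg. The WT count depended on the fit: it was 10 with array weights, 6 in a fit to the compared groups alone and 6 without the PND 0 arrays. In WT the 1 was Acaca, from 6.05, 6.58, 6.37 and 6.13 to 6.58, 6.86, 6.91 and 6.72, with values that met at 6.58 (0.48, SE 0.13, adjusted p = 0.0459), lost in 6 of 8 omissions (0.41 to 0.58). At an unadjusted p under 0.05, 15 members differed in WT and 22 in Tg, with no all-feature share given at that limit.

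**Figure D4:**
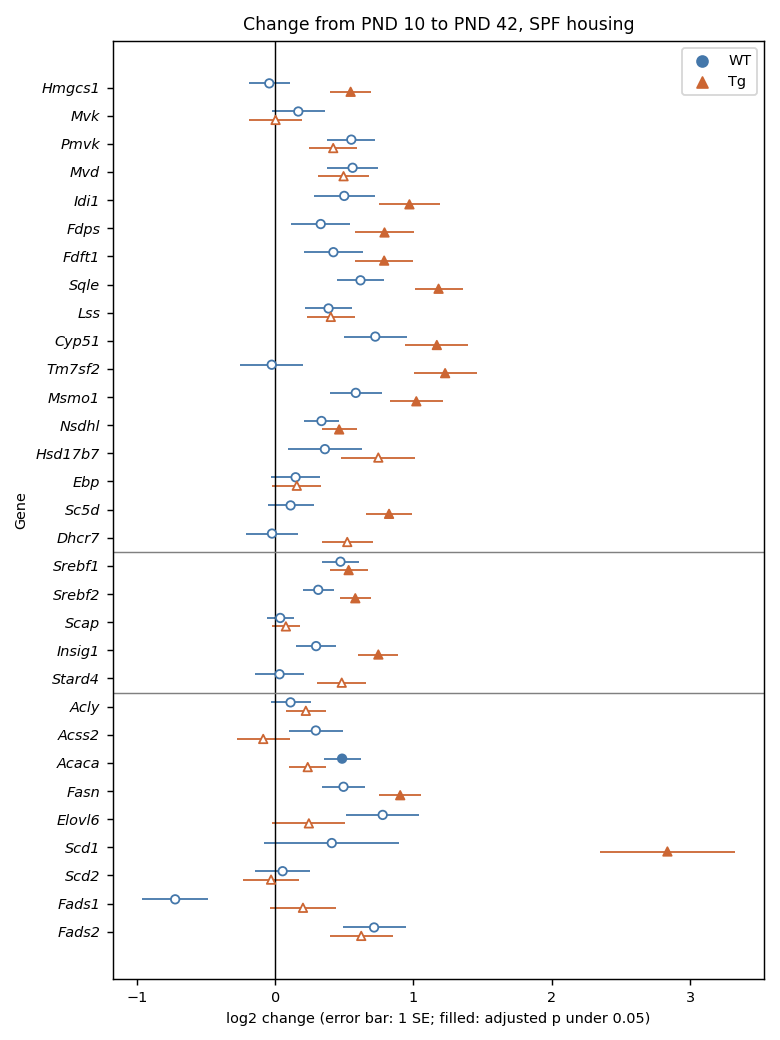
Log2 change of each gene from PND 10 to PND 42 in SPF housing with bars of 1 SE, circles for WT and triangles for Tg, filled where the adjusted p was under 0.05. The sterol arm of Tg macrophages lies above 0 throughout, with 10 of its 17 genes filled, and the WT values are mostly positive and smaller.

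In Tg macrophages Scd1 rose from 4.90, 5.14, 5.52 and 6.30 at PND 10 to 9.02, 7.80, 8.21 and 8.18 at PND 42 (log2 change 2.84, SE 0.49, adjusted p = 0.000375). Tm7sf2 rose from 3.80, 4.71, 4.96 and 4.27 to 5.62, 5.75, 5.49 and 5.79 (1.23, SE 0.23, adjusted p = 0.0009). Sqle, the squalene epoxidase and a controlled step of the pathway, rose from 6.95, 6.87, 6.66 and 6.09 to 7.70, 7.87, 7.70 and 8.02 (1.18, SE 0.17, adjusted p = 5.53e-05). None of these overlapped between the ages. Cyp51 rose from 7.19, 6.90, 6.72 and 6.07 to 7.77, 7.87, 8.09 and 7.82 (1.17, SE 0.23, adjusted p = 0.00136), and Msmo1 from 7.72, 7.75, 7.22 and 7.27 to 8.35, 8.46, 8.59 and 8.64 (1.02, SE 0.19, adjusted p = 0.000902). Idi1, which isomerises the first isoprenoid unit, rose from 7.22, 7.24, 6.89 and 6.33 to 7.53, 8.15, 7.99 and 7.88 (0.97, SE 0.22, adjusted p = 0.00657), and its second feature rose too (1.06). These 3 genes were likewise without overlap, and all 6 passed with each array left out. The other 9 that rose were Fasn (0.90), Sc5d (0.82), Fdft1 (0.79), Fdps (0.79), Insig1 (0.75), Srebf2 (0.58), Hmgcs1 (0.55), Srebf1 (0.53) and Nsdhl (0.46), of which Hmgcs1, Fdps, Fdft1, Nsdhl and Srebf1 lost their call in 2 to 6 of 8 omissions.

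A larger number of calls in Tg than in WT does not show that the genotypes differ, so the difference was tested. In the interaction of genotype with the interval from PND 10 to PND 42 limma called 0 members (8 at an unadjusted p under 0.05), where 0.639% of all features were called. Tm7sf2 (1.25, adjusted p = 0.0684) and Scd1 (2.43, adjusted p = 0.132) were nearest among those named here. Scd1 in the WT pools of PND 10 ran from 3.85 to 7.42 (SD 1.56). It passed without WT PND 10 replicate 1, and Tm7sf2 passed without Tg PND 10 replicate 3. For the interval from PND 3 to PND 42 in SPF housing, 1 member passed, where 1.23% of all features did: the genotype effect on Insig1 moved by 0.87 (adjusted p = 0.0235), from below WT at PND 3 to above it at PND 42, with the call lost in 5 of 16 omissions (0.77 to 1.03). At an unadjusted p under 0.05, 15 members differed in it, again with no all-feature share given at that limit. From PND 3 to PND 10 limma called 0 members (3 at an unadjusted p under 0.05), where 0.0553% of all features were called. In the interval to PND 42 the Tg macrophages also rose in 6 of 9 club and goblet cell markers, 4 of 6 dendritic cell markers and 3 of 14 alveolar macrophage markers, and mitosis markers fell, 8 of 12 in WT and 4 of 12 in Tg. Their part in the sterol genes was not tested.

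The third question was whether housing without microbes changed the genes. Neither genotype had a member called between GF and SPF housing by limma, with 4 members at an unadjusted p under 0.05 in WT and 6 in Tg, where 0.0657% and 0.142% of all features were called. The sterol arm was higher in GF housing for 14 of 17 enzymes in WT (median log2 change 0.26) and for 3 of 17 in Tg mice (median -0.23). Insig1 in Tg mice changed by -0.56 (adjusted p = 0.199) and Hsd17b7, a sterol reductase, by -0.92 (adjusted p = 0.304). The genotype effect was lower in GF than in SPF housing for 16 of 17 sterol enzymes (median -0.52). But limma called 0 of 31 members in that interaction (8 at an unadjusted p under 0.05), where 0.00346% of all features were called. No all-feature share or median by sign stands beside the counts of 17 in this paragraph. Sterol genes also varied together between arrays of a group, so such a count is not 17 separate results. The SPF adults all had low Xist, and 2 of 3 GF mice of each genotype had high Xist, so that housing and Xist were not balanced.

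**Figure D5:**
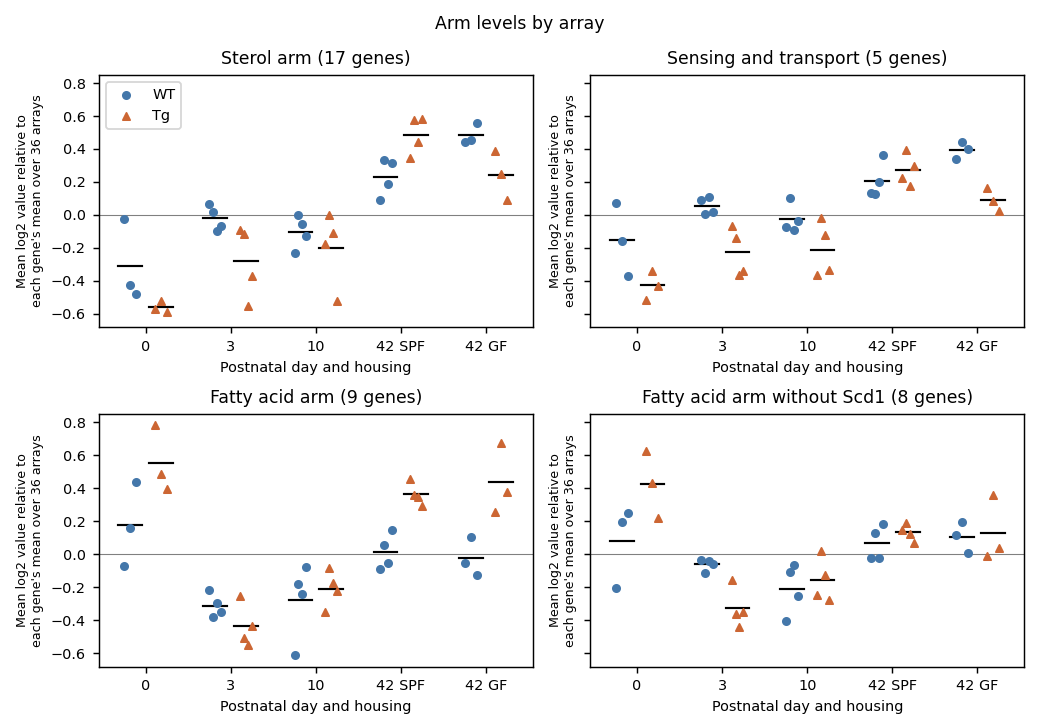
Mean log2 level over the genes of an arm on each array, relative to each gene's mean over the 36 arrays, in panels for the sterol arm, the sensing and transport genes, the fatty acid arm and the fatty acid arm without Scd1 (WT as circles, Tg as triangles, group means as lines). The sterol arm rises from means of -0.31 and -0.56 at birth to 0.23 to 0.49 in adults, and the adult Tg excess in the fatty acid arm nearly closes without Scd1.

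As a mean over its 17 genes, relative to each gene's mean over the 36 arrays, the sterol arm was at -0.31 ± 0.25 (SD, n = 3) in WT and -0.56 ± 0.04 (SD, n = 3) in Tg pools at birth. In adults it was 0.23 ± 0.11 (SD, n = 4) in WT and 0.49 ± 0.11 (SD, n = 4) in Tg mice of SPF housing, where the lowest Tg mouse (0.35) lay just above the highest WT mouse (0.34). In GF housing it was 0.48 ± 0.06 (SD, n = 3) in WT and 0.24 ± 0.15 (SD, n = 3) in Tg mice, where the order was turned, again without overlap. The fatty acid arm was 0.01 ± 0.11 (SD, n = 4) in WT and 0.36 ± 0.07 (SD, n = 4) in Tg mice of SPF housing, and without Scd1 0.07 ± 0.10 and 0.13 ± 0.05, which overlapped. In GF housing it was -0.03 ± 0.12 (SD, n = 3) and 0.44 ± 0.21 (SD, n = 3), and without Scd1 0.10 ± 0.09 and 0.13 ± 0.20. These means are descriptions of the list.

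The spread between arrays of a group was shared within the sterol arm. With group means subtracted, the median correlation over the 36 arrays was 0.247 for the 136 pairs of sterol genes (from -0.478 to 0.697), 0.245 for the 85 pairs of a sterol with a sensing or transport gene, 0.114 for the 36 pairs of fatty acid genes and 0.017 for the 153 pairs of a sterol with a fatty acid gene, beside 0.004 over all pairs of features. Arrays share their RNA yield, amplification and cell makeup across all genes, so these values are descriptions. Fdft1 had the highest median correlation with the sterol arm (0.477), followed among those named here by Insig1 (0.375), Sqle (0.365) and Msmo1 (0.359). Scd2 (-0.179), Scd1 (-0.133), Acss2 (-0.079) and Dhcr7 (-0.070) had median correlations below 0 with the sterol arm. Of these, Scd1 and Dhcr7 rose in adult Tg mice of both housings, and Scd2 and Acss2 passed in neither. Fads1 (0.042) and Sc5d (0.257), which rose in SPF adults, were above 0.

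Genes of neighbouring pathways were followed from lists. Of all features, 2.74% rose and 1.59% fell in Tg at PND 0, and 2.17% rose and 1.87% fell at PND 3. At PND 10, 1.57% were called in either direction. In adults 2.72% rose and 1.77% fell in SPF mice, and 3.14% rose and 1.77% fell in GF mice. Of 15 measured genes of fatty acid uptake, storage and oxidation, 4 rose and 1 fell in adult Tg mice of either housing. They were Fabp4, a fatty acid carrier (log2 change 1.72 in SPF and 1.95 in GF mice, adjusted p = 0.000576 and 0.000725), Cd36, a fatty acid and lipoprotein receptor (1.01 and 1.2), Fabp5 (0.76 and 0.92) and Acadl (0.60 and 0.61), with Cpt1a, which admits fatty acids to mitochondria, lower (-0.56 and -0.54). Of these 15, 1 rose and 1 fell at PND 0, 3 fell at PND 3 and 1 fell at PND 10, among them Pparg, a regulator of lipid handling, at each of the 3 ages (-0.72, -0.88 and -0.55). A list of liver X receptors, their targets, sterol export and other sterol-handling enzymes had 11 measured genes. Of these 11, 2 fell at PND 0, 1 rose and 1 fell at PND 3, and 1 rose at PND 10. In adults 2 rose and 1 fell in SPF mice, and 3 rose in GF mice. Ch25h, which makes 25-hydroxycholesterol, an oxysterol that restrains SREBP, fell at PND 0 (-1.30) and rose in adults (1.99 in SPF and 2.33 in GF mice, adjusted p = 3.05e-05 and 2.75e-05). Abca1, the cholesterol exporter, rose at PND 3 (1.82, adjusted p = 9.20e-08), at PND 10 (1.37) and in GF adults (1.01).

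The same all-feature shares hold for the next 2 lists, and a single call says little about a list this short. Of 20 other measured genes of fatty acid and glycerolipid synthesis, 1 rose and 1 fell at PND 0 and at PND 3, and 1 rose at PND 10. In adults 3 rose and 2 fell in SPF mice, and 1 rose and 2 fell in GF mice. Acsl4, which activates arachidonic acid, rose at PND 3 (1.07), at PND 10 (0.98) and in SPF (0.67) and GF (0.79) adults, and Dgat2, which makes triglyceride, fell in SPF (-1.46) and GF (-1.33) adults. Me1, which supplies NADPH for fatty acid synthesis, rose in SPF adults (1.15, adjusted p = 0.0269). Elovl7, an elongase, rose at PND 0 (1.62). Of 9 other measured genes of sterol and isoprenoid synthesis and SREBP processing, 1 rose in each of the 5 genotype comparisons: Ggps1 at PND 0 (0.52) and Nus1, a subunit of the dolichol-making enzyme, at PND 3 (0.41), at PND 10 (0.46) and in SPF (0.67) and GF (0.52) adults.

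The members near background limit some of these values. Acss2 had a group mean near background in all groups but those of PND 0, Elovl6 in WT and Tg at PND 3 and in Tg at PND 10 and at PND 42 in both housings, Fads2 in WT at PND 3 and PND 10, and Scd1 in WT at PND 3. Changes into or out of these groups may be understated. The second features of Scap and Acaca were dimmer and did not pass for any of the calls given above. For Scap they gave -0.38 (adjusted p = 0.125) for Tg against WT at PND 0, and 0.08 (adjusted p = 0.769) in WT and 0.34 (adjusted p = 0.0508) in Tg from PND 0 to PND 3. For Acaca they gave -0.44 (adjusted p = 0.460) for Tg against WT at PND 3, -0.46 (adjusted p = 0.197) in Tg from PND 0 to PND 3 and 0.46 (adjusted p = 0.480) in WT from PND 10 to PND 42.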

How the data were processed

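RNA of lavage macrophages was amplified with the NuGEN Ovation Pico system and measured on the Affymetrix Gene ST array for mouse. The deposited values are log2 RMA signals, which the authors made with Partek 6.5 per the labels, with a background adjustment for sequence, quantile normalization and median polish. Quantile normalization removes a shift common to all genes, and pooling of pups lowers the spread between arrays. All 36 columns were used (0 left out). Of 35556 features, 6616 whose ID lies below the lowest annotated one were left out. Of the 28940 kept, 21218 had exactly 1 symbol, 1881 several and 5841 none. R 4.3.3 and limma 3.58.1 fitted 1 mean per group over the 10 groups, with 18 comparisons and Benjamini-Hochberg adjustment over all kept features in each. The script was tested on simulated data. Array number limits the precision. The p-values use 1 spread per feature, shared by all 10 groups of pools and single mice. The median SD of a feature was 0.21 in WT and 0.19 in Tg at PND 0, against 0.13 to 0.17 in the later groups. An exact test of 3 arrays against 3 cannot go below p = 0.1.

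Members called in a genotype comparison are given per array, with Srebf1, Srebf2, Scap and Insig1. For each age or housing comparison up to 6 called members of largest change are given, and from each neighbouring list up to 4 called genes. The members and lists were chosen with earlier results of these data known. Of the listed genes 27 were not measured under 1 symbol. A replicate block, weights, scalings, filters and the omission of each array were tried. A term for Xist, the omission of all PND 0 arrays and that of replicate 3 at PND 0 were added after seeing the data.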

Additional observations from a re-analysis of the deposited data

Results flagged for a closer look

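In 7 of 186 pairs of a member and a group of 4 arrays, 1 array stood far from the others by Dixon's test, which flags about 1 in 20 by chance. Hmgcs1 was 8.27 in Tg PND 42 SPF replicate 3, beside 8.27 to 8.28 in the others, a gap of no practical size. Ebp was 6.57 in Tg PND 3 replicate 3, beside 7.04 to 7.07. Dhcr7 was 7.61 in WT PND 3 replicate 2, beside 7.13 to 7.20. Stard4 was 5.15 in WT PND 10 replicate 3, beside 5.81 to 5.94. Acss2 was 3.40 in Tg PND 3 replicate 2, beside 3.22 to 3.24. Fads2 was 4.88 in Tg PND 3 replicate 1, beside 3.97 to 3.98, and 3.69 in WT PND 10 replicate 4, beside 3.86 to 3.88. The values of Acss2, and of Fads2 in WT, lie near background.

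The genotype effect on Insig1 differed between PND 42 in SPF housing and PND 3 by 0.87 on the log2 scale (limma interaction, adjusted p = 0.0235).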

How the results depend on the processing

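Over 1345 pairs of a called member result and a setting, the 60 results kept direction in all pairs and their call in 1113. Direction could not turn where a setting leaves the group means unchanged. These were the compared groups alone, weights by age, the prior, moderation, filters on features, the 2-fold limit and leaving out PND 0. The second feature differed only for Idi1, Scap and Acaca. Counts of members called moved as follows. Fits to the compared groups alone gave 0 for Tg against WT at PND 0, 2 for GF adults, 7 for WT PND 0 to 3, 6 for WT PND 10 to 42 and 6 for the change of the genotype effect from PND 3 to 42. Array weights gave 1 at PND 0, 7 at PND 3, 10 for WT PND 10 to 42 and 3 for the effect from PND 3 to 42, and weights by age gave 1, 6, 4 and 2, with 1 for the effect from PND 10 to 42. Median centring gave 2 for the effect from PND 3 to 42, and a second quantile normalization 1 for the effect from PND 0 to 3. For WT PND 10 to 42 a trended robust prior, no moderation, all features kept and the second feature each gave 0, and all features kept gave 2 for GF adults. The filter on dim features gave 1 at PND 10, 3 for WT PND 10 to 42, and 1 and 2 for the effects from PND 10 and PND 3 to 42, and 1 feature per gene gave 1, 2, 1 and 2. With the 2-fold limit 1, 0, 2 and 2 members passed at PND 0, PND 3, SPF and GF, 3 and 7 for PND 0 to 3 in WT and Tg, 0 and 5 for PND 10 to 42, and 0 for the effect from PND 3 to 42. Of the settings added after seeing the data, the term for Xist moved no count by over 1.5 times, leaving out PND 0 gave 8 at PND 3, 6 for WT PND 10 to 42 and 3 for the effect from PND 3 to 42, and leaving out replicate 3 at PND 0 gave 8 for WT PND 0 to 3 and 1 for the effect from PND 0 to 3. The causes were not tested.

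With each array left out, counts ran from 2 to 6 at PND 0, 0 to 3 at PND 3, 0 to 1 at PND 10, 2 to 5 in SPF and 1 to 3 in GF adults. They ran from 5 to 14 (WT) and 11 to 14 (Tg) for PND 0 to 3, 0 to 0 and 0 to 1 for PND 3 to 10, 0 to 2 and 11 to 15 for PND 10 to 42, and 0 to 0 for housing in each genotype. For the genotype effect they ran from 0 to 2 (PND 0 to 3), 0 to 0 (PND 3 to 10), 0 to 1 (PND 10 to 42), 0 to 2 (PND 3 to 42) and 0 to 0 (housing).

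With group means subtracted, WT and Tg arrays of the same replicate number had correlations of -0.126 to 0.244. These were not set beside arrays of different numbers, so a pairing by number was not tested. High Xist matched by number at PND 0 (replicate 3) and in GF housing (replicates 1 and 2), but not at PND 3. The replicate block gave 2 members for WT PND 10 to 42 and moved no other count by over 1.5 times.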
